A study of Arabidopsis thaliana with 4 samples.

Results

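The genes described here are the 10 Arabidopsis loci that make, break down and carry proline. They are P5CS1, P5CS2, P5CR and OAT for synthesis, PDH1 (also called ERD5), PDH2 and P5CDH for breakdown, and PROT1, PROT2 and PROT3 for transport. They were taken by locus with no threshold on their values, and all 10 were found among the 34252 loci or unmatched transcripts on the array. The compared seedlings were sahy9-1, the sahy9/apum23 line with a T-DNA insertion in an exon of APUM23, and the wild type Col-0. Both were grown for 10 days, moved to 150 mM NaCl for 1 day and harvested whole, with 2 replicates each from independent experiments. APUM23 encodes a nucleolar Pumilio-type RNA-binding protein, and sahy9-1 plants are small with short roots. Both genotypes were salt treated, no untreated seedlings were on these arrays, and 1 mutant line stands for the loss of APUM23, so every value compares the genotypes under salt.

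Proline accumulates in many plants under salt and drought, where it acts as a compatible solute and a store of carbon, nitrogen and reducing power. It is made from glutamate in the cytosol and plastid, first by P5CS, whose step limits the rate, and then by P5CR, and it is oxidised back to glutamate in mitochondria by PDH and P5CDH. In Arabidopsis, osmotic stress and ABA are known to raise P5CS1 and to hold PDH1 down, and PDH1 is induced when stress is relieved or proline is supplied. Ornithine enters at the shared intermediate through OAT, and the PROT carriers move proline and other compatible solutes across the plasma membrane.

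Each sample was labelled with Cy3 and hybridized to its own Agilent array, where the brightness of a spot reports the amount of a transcript. All 4 arrays lay on 1 slide and were scanned together. Of 43803 gene spots per array, 74.6% to 76.3% were well above background and 0 were saturated. Correlations of log2 values were 0.996 between the sahy9-1 arrays, 0.995 between the Col-0 arrays and 0.947 to 0.959 between genotypes. A level below is a log2 intensity minus that of the 75th percentile on the same array, so 0 marks that percentile, and levels of different genes are not set against each other because probes differ in brightness. A log2 fold change is the sahy9-1 mean minus the Col-0 mean, tested with limma in a fit of 21729 genes with Benjamini-Hochberg adjustment. A gene rose or fell here when its adjusted P did not exceed 0.05, and the study's 3-fold definition of differential expression is given beside it. APUM23, the check of the labels, had levels of -3.35 and -3.59 in sahy9-1 and -0.62 and -0.42 in Col-0, which was 7.71-fold lower in the mutant (adjusted P = 0.000972).

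In salt-treated sahy9-1 seedlings the transcripts for the first step of proline synthesis were lower and those for the first step of its breakdown were higher than in Col-0. P5CS1 fell 3.08-fold and P5CS2 fell 1.54-fold, while PDH1 rose 2.06-fold, PDH2 rose 1.79-fold and the carrier PROT3 rose 2.15-fold. P5CR rose 1.33-fold and P5CDH fell 1.22-fold on its brightest probe, and OAT, PROT1 and PROT2 did not pass the test. All 10 reached the signal filter's intensity of 100 in both genotypes and were tested, and 7 passed the adjusted P, 4 higher and 3 lower in sahy9-1, in a background where 49.4% of all genes tested passed (25.3% higher and 24.1% lower). By role, 1 of the 4 synthesis genes rose and 2 fell, 2 of the 3 breakdown genes rose and 1 fell, and 1 of the 3 carriers rose. P5CS1 was the 1 member that also changed at least 3-fold, against 3.24% of all genes, and 3 members, P5CS1, PDH1 and PROT3, passed 2-fold, against 8.38%. The groups did not overlap for 8 of the 10 members, against 80.3% of all genes. The median log2 fold change of the members was 0.11, against -0.0048 over all genes tested, and the median size of the change was 0.52, against 0.28. In whole seedlings, fewer cells of a type and less RNA per cell cannot be told apart.

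**Figure D1:**
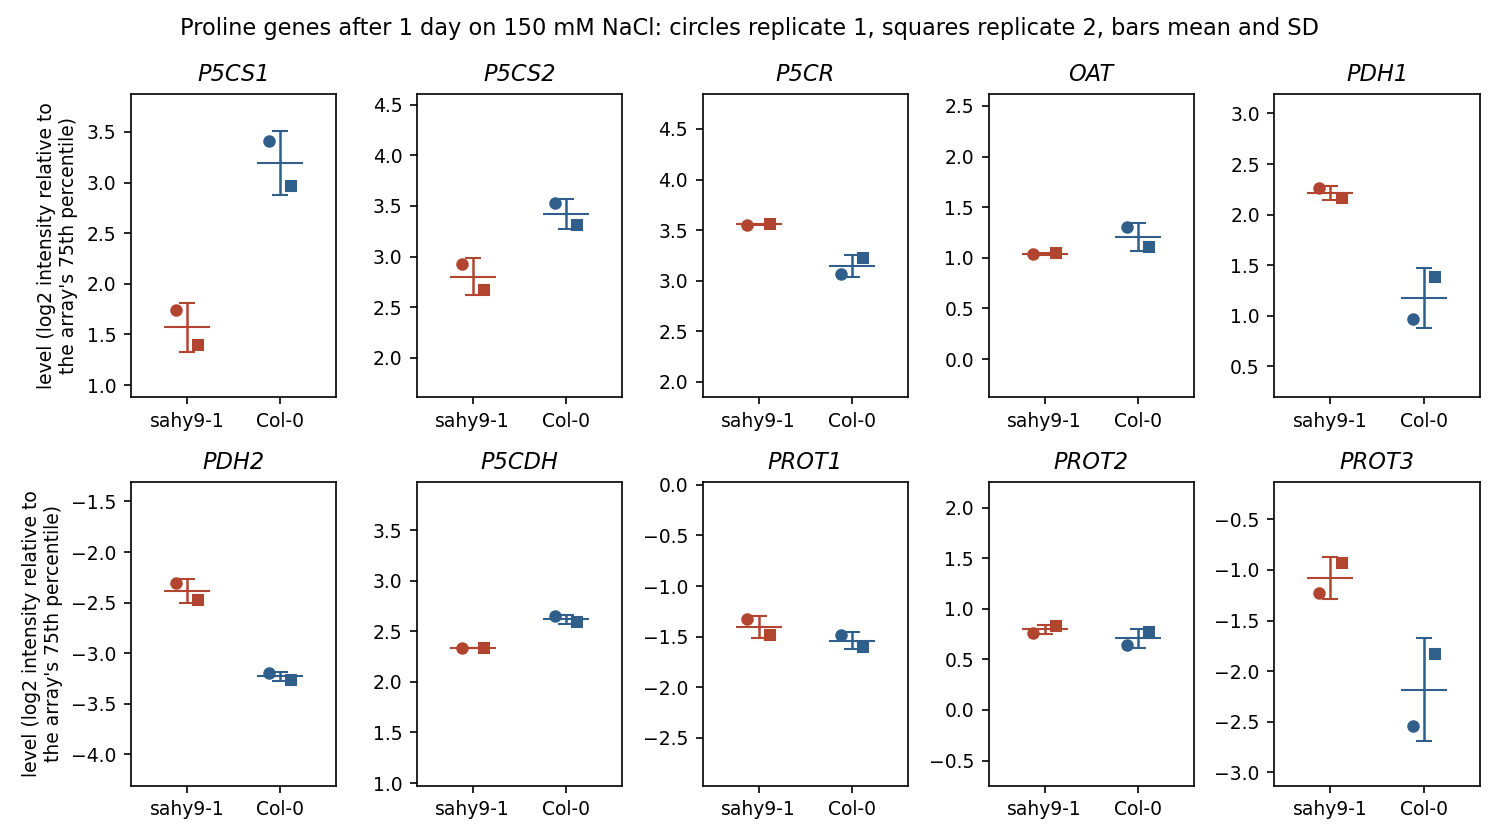
Level of each proline gene on each array (log2 intensity relative to the array's 75th percentile), with sahy9-1 left and Col-0 right in each panel. Circles and squares are replicates 1 and 2, bars show the mean and SD, and every panel spans 3 log2 units. P5CS1, PDH1 and PROT3 show the widest distances between the genotype means.

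P5CS1 (AT2G39800), the stress-induced isoform of the rate-limiting enzyme, had levels of 1.74 and 1.40 in sahy9-1 and 3.41 and 2.97 in Col-0. Both mutant arrays lay below both wild-type arrays, by more than the gap between replicates. The log2 fold change was -1.62 (SE 0.20, adjusted P = 0.00522), a change larger in size than that of 96.8% of the genes tested. P5CS1 has 2 probes on the array, and on the dimmer one the levels were -4.63 and -5.02 in sahy9-1 and -2.22 and -2.68 in Col-0, 5.19-fold lower in sahy9-1. That probe reached an intensity of 100 on both arrays of Col-0 only, so its value is a description. The brightest probe stayed past the adjusted P in each fit that left out 1 array, but its log2 fold change was -1.45 without sahy9-1 replicate 2 and -1.40 without Col-0 replicate 1, under 3-fold in both.

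P5CS2 (AT3G55610), the isoform that supplies proline for growth and is needed for embryo development, had levels of 2.93 and 2.67 in sahy9-1 and 3.53 and 3.32 in Col-0. All values of sahy9-1 were lower than those of Col-0, with a smaller gap than for P5CS1. The log2 fold change was -0.62 (SE 0.13, adjusted P = 0.0170), and its other probe gave -0.63, so both probes of P5CS2 moved alike. The call was lost without sahy9-1 replicate 2 (-0.49, adjusted P = 0.0770) and without Col-0 replicate 1 (-0.51, adjusted P = 0.0614), and over the 17 alternative settings that give an adjusted P it ran from 0.0031 to 0.131.

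P5CR (AT5G14800), which reduces the intermediate to proline in the final step of both synthetic routes, went the other way. Its levels were 3.55 and 3.56 in sahy9-1 and 3.07 and 3.22 in Col-0. The sahy9-1 arrays were nearly equal and both higher than Col-0. The log2 fold change was 0.41 (SE 0.08, adjusted P = 0.0149). Leaving out sahy9-1 replicate 1 or 2 kept the size, at 0.42 and 0.41, with adjusted P of 0.0828 and 0.0885, in a range of 0.0088 to 0.0954 over the 17 alternatives. OAT (AT5G46180), the mitochondrial aminotransferase that turns ornithine into the same intermediate, had levels of 1.03 and 1.05 in sahy9-1 and 1.30 and 1.11 in Col-0. The genotypes did not overlap, but Col-0 replicate 2 lay close to the mutant values. Its log2 fold change was -0.17 (95% interval -0.40 to 0.069, adjusted P = 0.183), so a decrease of the size seen for P5CS2 lay outside the interval.

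PDH1 (AT3G30775), the mitochondrial proline dehydrogenase that opens the breakdown route, had levels of 2.27 and 2.17 in sahy9-1 and 0.97 and 1.38 in Col-0. Both mutant arrays were higher, and the wild-type arrays differed more from each other than the mutant arrays did. The log2 fold change was 1.04 (SE 0.15, adjusted P = 0.00776). PDH1 has 4 probes, and all 4 were higher in sahy9-1, by 2.06 to 2.40-fold, with adjusted P of 0.00384 to 0.00745 in the fit of all probes. Under normexp the 3 dimmer probes gave smaller log2 fold changes of 0.44, 0.74 and 0.77, still above 0. The rise passed the adjusted P in every fit without 1 array.

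PDH2 (AT5G38710), the second proline dehydrogenase, known in Arabidopsis for expression in the vasculature, is reported by 1 dim probe. Its levels were -2.30 and -2.47 in sahy9-1 and -3.20 and -3.26 in Col-0. The replicates were close in both genotypes and the groups stood well apart. The log2 fold change was 0.84 (SE 0.09, adjusted P = 0.00398). It was 0.32 with adjusted P = 0.447 under normexp, a model-based background correction applied to the median spot signal in place of the scanner's own, and the range over the 17 alternatives was 0.0019 to 0.447.

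P5CDH (ALDH12A1, AT5G62530), the dehydrogenase that finishes the breakdown to glutamate, had levels of 2.33 and 2.33 in sahy9-1 and 2.65 and 2.59 in Col-0 on its brightest probe. The values of sahy9-1 were slightly and evenly lower, with a log2 fold change of -0.29 (SE 0.06, adjusted P = 0.0220). A second, much dimmer probe had levels of -4.77 and -4.20 in sahy9-1 and -6.02 and -5.93 in Col-0, well above background on all 4 arrays. It read 2.80-fold higher in sahy9-1, opposite to the brightest probe, but it reached an intensity of 100 in sahy9-1 only, the genotype where it is high, so this is a description with no test. Under normexp the dim probe gave -0.20, and the mean of both probes gave 0.60 in the main scaling. The call on the brightest probe was lost without sahy9-1 replicate 1 (-0.29, adjusted P = 0.129), without sahy9-1 replicate 2 (-0.29, adjusted P = 0.130) and without Col-0 replicate 1 (-0.26, adjusted P = 0.0633), in a range of 0.0139 to 0.269 over the alternatives.

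SRO5, a neighbor whose annotated span overlaps that of P5CDH in TAIR10.1 and which is known to form a sense-antisense pair with it, was looked up after these values were seen. Its levels were -0.15 and 0.16 in sahy9-1 and -1.54 and -1.38 in Col-0. It was higher in both mutant arrays, with a log2 fold change of 1.47 (SE 0.13, adjusted P = 0.00338). Whether SRO5 has a part in the values of either P5CDH probe was not tested.

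**Figure D2:**
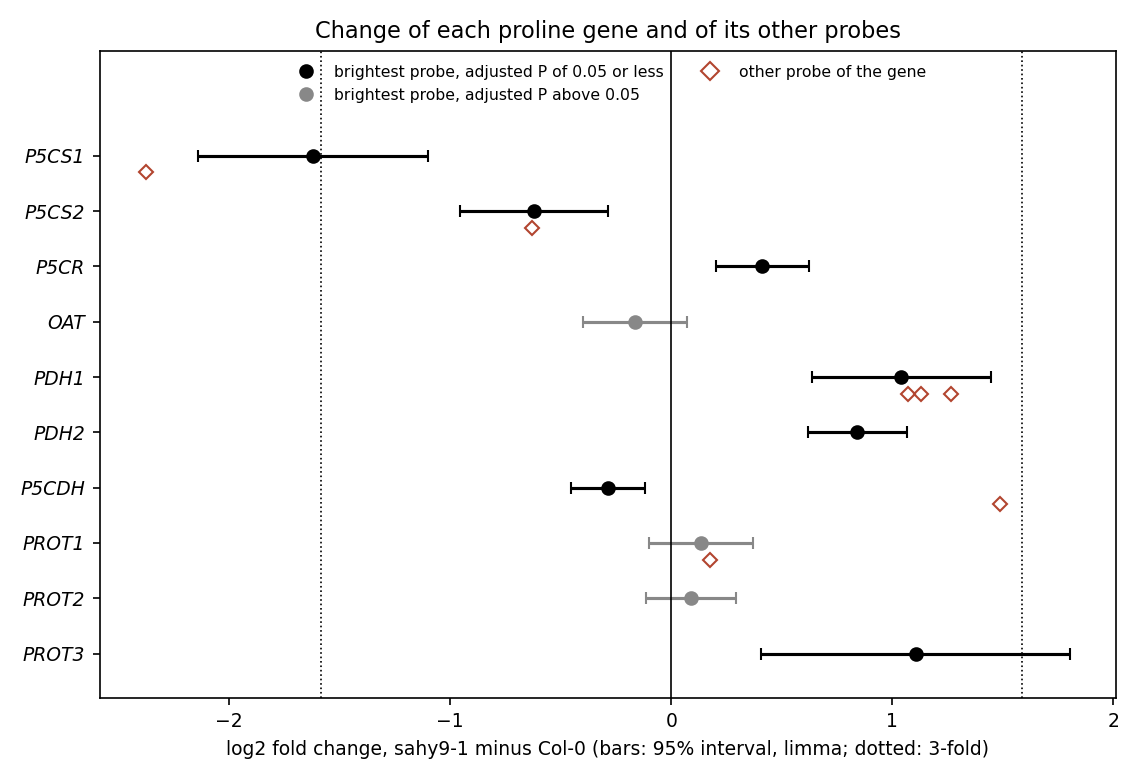
Log2 fold change of each proline gene (sahy9-1 minus Col-0) with its 95% interval, in the order synthesis, breakdown and transport. Filled circles are the brightest probe, grey where the adjusted P was above 0.05, open diamonds are the other probes of the gene, and dotted lines mark 3-fold. The diamonds lie near the circles for P5CS2, PDH1 and PROT1, further out at -2.38 for P5CS1 and on the opposite side of 0 at 1.49 for P5CDH.

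Among the carriers, PROT3 (AT2G36590), known in Arabidopsis for expression in the epidermis of leaves, had levels of -1.23 and -0.93 in sahy9-1 and -2.54 and -1.83 in Col-0. Both mutant values were higher, but the wild-type replicates lay far apart, with an SD of 0.21 in sahy9-1 and 0.51 in Col-0 (n = 2 each). The log2 fold change was 1.11 (SE 0.26, adjusted P = 0.0265), and the 95% interval ran from 0.41 to 1.80. The call was lost without sahy9-1 replicate 1 (1.25, adjusted P = 0.0646) and without sahy9-1 replicate 2 (0.96, adjusted P = 0.111), in a range of 0.0031 to 0.228 over the alternatives.

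PROT1 (AT2G39890), the carrier associated with phloem, had levels of -1.33 and -1.48 in sahy9-1 and -1.48 and -1.60 in Col-0. PROT2 (AT3G55740), associated with the root epidermis and cortex and known as stress-induced, had 0.77 and 0.83 in sahy9-1 and 0.64 and 0.77 in Col-0. The values of the genotypes overlapped for both genes. The log2 fold changes were 0.13 for PROT1 (95% interval -0.10 to 0.37, adjusted P = 0.262) and 0.088 for PROT2 (-0.12 to 0.29, adjusted P = 0.385), and the second probe of PROT1 gave 0.17, or -0.27 under normexp. A change as large as the 2.15-fold of PROT3 lay outside both intervals.

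Within an array the scaling cancels, so the difference between the levels of 2 genes tests whether their changes differ. For 6 pairs of members these differences were compared by an exact permutation test over arrays, in which 2 against 2 cannot give a two-sided P under 0.333. P5CS1 minus P5CS2 was -1.19 and -1.27 in sahy9-1 and -0.11 and -0.35 in Col-0, so P5CS1 was lower by a further 1.0 on the log2 scale (exact permutation P = 0.333, adjusted over the pairs 0.5). P5CS1 minus PDH1, a synthesis and a breakdown transcript, was -0.53 and -0.77 in sahy9-1 and 2.44 and 1.59 in Col-0. The sign of such a difference depends on the brightness of the probes, so only the shift between genotypes is read. The shift was the widest of the 6, -2.66 or 6.33-fold, with no overlap between genotypes (exact P = 0.333, adjusted 0.5). It joins the fall of P5CS1 and the rise of PDH1 already given and is no separate evidence. The shift is one of transcripts and does not give the amount of proline. The study's qRT-PCR also gave lower P5CS1 transcript in this mutant and in another apum23 allele than in Col-0, with and without salt. Under the same salt treatment it reported no decrease of proline in the mutants and no reduction of P5CS1 protein. PDH1 minus PDH2 was 4.57 and 4.64 in sahy9-1 and 4.17 and 4.64 in Col-0, a shift of 0.20 (exact P = 1). PROT1 minus PROT3 shifted by -0.97 and PROT2 minus PROT3 by -1.02 (exact P = 0.333 each, adjusted 0.5), with no overlap for either, and PROT1 minus PROT2 by 0.047 (P = 0.667, adjusted 0.8).

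The genes that connect to the proline route were described from lists by function. Of 13 tested genes for ornithine and arginine, 5 rose and 2 fell around a median of 0.17 on the log2 scale, and the 53.8% called was close to the 49.4% of all genes. The widest change was that of BAC2, a stress-induced mitochondrial carrier of basic amino acids, with levels of -2.97 and -3.77 in sahy9-1 and -0.58 and -1.38 in Col-0. BAC2 fell 5.23-fold (log2 fold change -2.39, SE 0.38, adjusted P = 0.00928), with both mutant values below both wild-type values. ARGAH2, an arginase that releases ornithine, fell by 0.48 on the log2 scale (adjusted P = 0.0167), and NAGS2, for the first step of ornithine synthesis, rose by 0.67 (adjusted P = 0.0132) but gave -0.15 under normexp. The other 4 that rose, all with roles in the synthesis of ornithine or arginine, gave 0.32 to 0.44. Leaving out either sahy9-1 replicate left 0 genes that rose and 1 that fell.

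Of 11 genes for the supply of glutamate, 10 were tested, 3 rose and 2 fell, with a median of -0.053, and the 50% called was close to the 49.4% of all genes. GLU1, the ferredoxin-dependent glutamate synthase of leaves, fell by 0.71 on the log2 scale (adjusted P = 0.00353). The cytosolic glutamine synthetase GLN1;1 rose by 0.64 (adjusted P = 0.0085) and GDH2, a glutamate dehydrogenase subunit, rose by 0.44 (adjusted P = 0.0077). Leaving out either sahy9-1 replicate left 1 gene that rose and 1 that fell.

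Of 9 other amino acid carriers known to accept proline, 8 were tested, 6 rose and 1 fell, with a median of 0.46, where 25.3% of all genes rose and 24.1% fell. LHT1, which takes up neutral and acidic amino acids in roots and leaf mesophyll, had levels of 4.30 and 4.06 in sahy9-1 and 2.69 and 2.97 in Col-0, 2.55-fold higher in sahy9-1 (adjusted P = 0.00394). AAP4 rose by 0.85 (adjusted P = 0.00479). AAP1, a carrier of root uptake and of supply to the embryo, had levels of 2.39 and 2.19 in sahy9-1 and 3.57 and 3.20 in Col-0, 2.13-fold lower in sahy9-1 (adjusted P = 0.00693). For each of these 3 the groups did not overlap, as for 80.3% of all genes. Under normexp 3 carriers rose and 0 fell, with AAP1 at -1.01 on the log2 scale (adjusted P = 0.0656). Leaving out either sahy9-1 replicate left 3 genes that rose and 1 that fell.

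**Figure D3:**
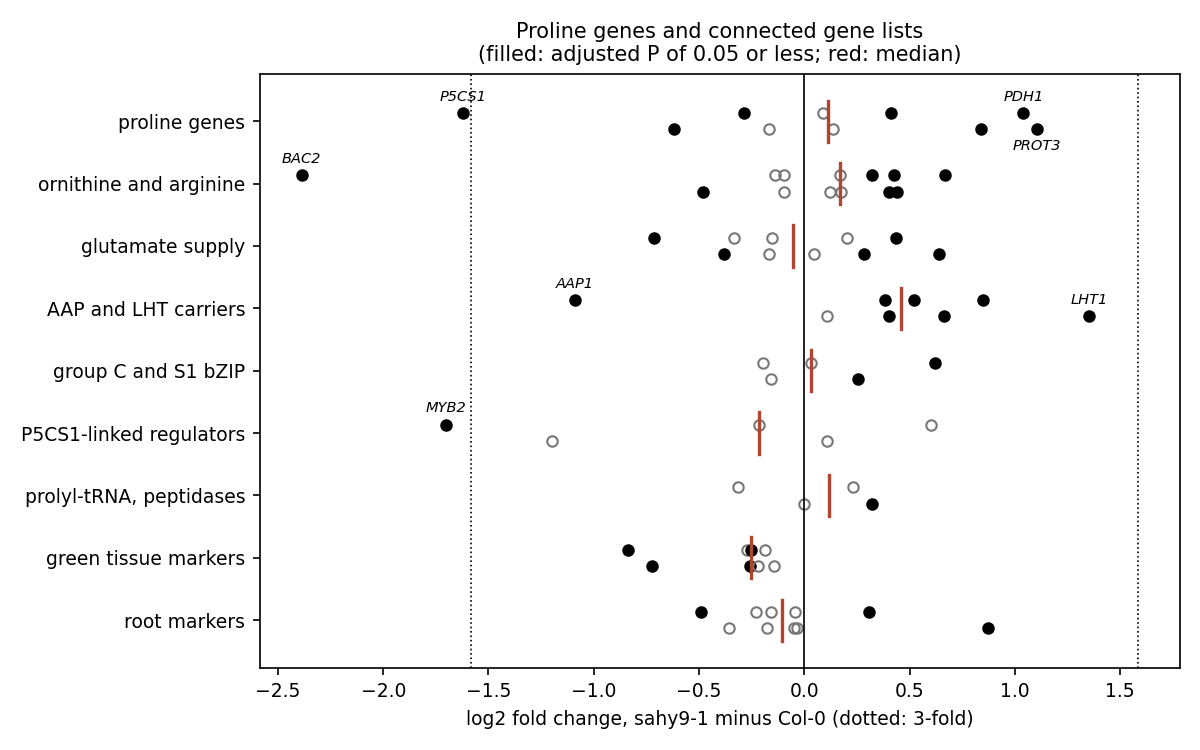
Log2 fold change (sahy9-1 minus Col-0) of every tested gene in the proline set, the connected lists and 2 lists of tissue markers. Filled points passed the adjusted P of 0.05, red bars are medians and dotted lines mark 3-fold. P5CS1, BAC2 and MYB2 lie past 3-fold, and genes of most lists lie on both sides of 0.

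Factors of bZIP groups C and S1 are known to act at the PDH genes in Arabidopsis. Of the 5 tested, 40% were called, against 49.4% of all genes. BZIP63 rose by 0.62 (adjusted P = 0.0197) and BZIP44 by 0.25 (adjusted P = 0.0363). Under normexp they gave 0.61 and 0.044, and both calls were lost (adjusted P = 0.099 and 0.862). Both were also lost without a signal filter (adjusted P = 0.073 and 0.111). Leaving out sahy9-1 replicate 2 or Col-0 replicate 1 left neither called, and BZIP44 was also lost without sahy9-1 replicate 1 or Col-0 replicate 2, the last of which left 1 other factor lower. The other 4 factors listed, BZIP1, BZIP2, BZIP11 and BZIP53, matched no probe and were not analysed, so the 40% covers only part of these groups. Of 5 factors linked to P5CS1 expression, 0 rose and 1 fell by limma, so 20% were called, against 49.4% of all genes. At an unadjusted P of 0.05, 1 was higher and 2 were lower. The unmoderated test that the methods name gave 0 in either direction. The one that fell was MYB2, an ABA- and salt-responsive factor, with levels of -5.45 and -4.56 in sahy9-1 and -3.64 and -2.97 in Col-0, 3.26-fold lower in sahy9-1. MYB2 reached an intensity of 100 on both arrays of Col-0 only, the genotype where it is high, so its values are given as a description. Under normexp it gave -1.58 on the log2 scale and was not called (adjusted P = 0.121). Its call was also lost without a signal filter, without sahy9-1 replicate 1 and without Col-0 replicate 2, and in the last of these another of the 5 factors was called higher. Of 4 genes for prolyl-tRNA synthetases and proline-releasing peptidases, which use or return proline through protein, 25% were called, against 49.4% of all genes. The cytosolic prolyl-tRNA synthetase rose by 0.32 (adjusted P = 0.0252). It was lost in 3 of the 4 fits without 1 array, those without sahy9-1 replicate 1, sahy9-1 replicate 2 or Col-0 replicate 1.

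The tissue of the samples was checked with marker genes, given here because some proline genes differ between organs. All 8 markers of green tissue were well above background on every array. By limma 0 rose and 4 fell (0 and 5 at an unadjusted P of 0.05), where 25.3% of all genes rose and 24.1% fell. Under normexp 1 fell, without a signal filter 2 fell, and by the unmoderated test with Benjamini-Hochberg adjustment 0 did. In some fits without 1 array fewer of these markers fell as well. Their summed intensity, in units of each array's 75th percentile, was 360 and 372 in sahy9-1 and 419 and 433 in Col-0. The brightest markers weigh most in this sum. Among them, CAB1 and RBCS1A did not pass the limma test (adjusted P = 0.0916 and 0.139). Of 11 root markers 10 were well above background on every array and IRT1 on none. Of the 10 tested, 30% were called, against 49.4% of all genes. The 2 that rose, NRT2.1 and MYB36, were not called higher under normexp or without a signal filter. PLT1 was called lower but reached an intensity of 100 in Col-0 only. The sums of the root markers, 5.02 and 4.48 in sahy9-1 and 4.59 and 3.92 in Col-0, overlapped. Without Col-0 replicate 2, 6 of the root markers fell, and without either sahy9-1 replicate 0 did. Of 7 seed and flower markers, 1 was tested and 0 were called (0 at an unadjusted P of 0.05), with sums of 0.161 and 0.163 in sahy9-1 and 0.170 and 0.146 in Col-0. With the filter on signal well above background, or with none, 1 of these 7 was called higher and 1 lower. Of the dim ones, looked up after this count, AP3 read -4.94 and -5.21 in sahy9-1 and -6.32 and -6.31 in Col-0, and AP1 was not well above background in sahy9-1. The part of tissue composition in the changes of P5CS1, PDH1 and the other members was not tested.

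The genes with the profile closest to P5CS1 over the 4 arrays, by the root mean square distance of levels centred on each gene's mean, were CPL3, a MYB-related gene of the CAPRICE family (0.0192), a transcript that matched no locus (0.0216) and VTE1, tocopherol cyclase (0.0278). CPL3 gave a log2 fold change of -1.66 and VTE1 of -1.59. For PDH1 they were the glutamate receptor-like gene ATGLR1.2 (0.0183), MEE67 (0.0209) and the calcium-binding protein gene CP1 (0.0275), with log2 fold changes of 1.06, 1.03 and 1.02. These are likenesses over 4 arrays chosen from all genes tested.

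In the TAIR10.1 annotation P5CS1 and PROT1 lie on chromosome 2 with 11 protein-coding genes between them, and P5CS2 and PROT2 on chromosome 3 with 16 between them. Whether the changes of these neighboring members differ was not tested. The annotated spans of P5CS1, P5CS2 and PROT3 each overlap the gene on one side. AT2G39795 beside P5CS1 rose by 0.93 (adjusted P = 0.00337) and AT3G55605 beside P5CS2 rose by 0.58 (adjusted P = 0.00669), opposite to the member. AT2G36580 beside PROT3 rose by 0.58 (adjusted P = 0.0114), in the same direction as PROT3. These neighbors were looked up after the members' values were seen, and whether any probe reads both genes was not tested.

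**Figure D4:**
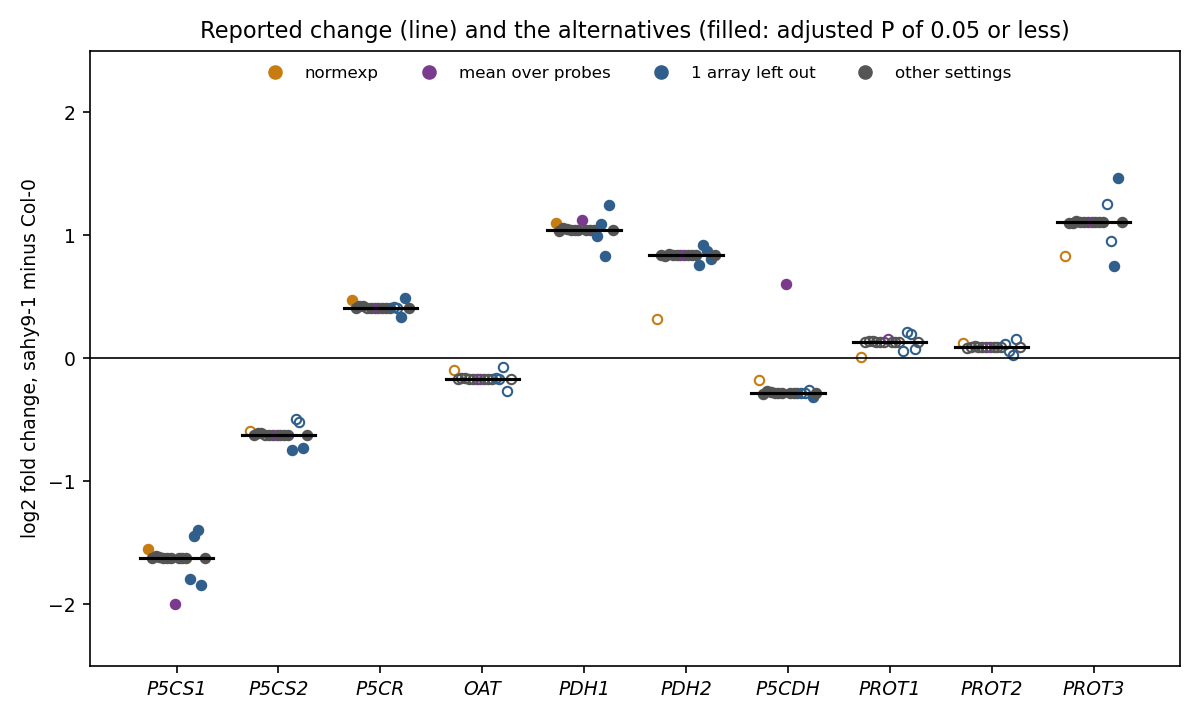
Log2 fold change of each proline gene (sahy9-1 minus Col-0) as reported (black line) and under each alternative that changes the processing, the fit or the arrays (points, filled where the adjusted P was 0.05 or less). P5CS1 and PDH1 stay on their side of 0 under every alternative drawn, P5CDH crosses 0 when its 2 probes are averaged, and PDH2 drops to 0.32 under normexp.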

How the data were processed

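Total RNA of 2 sahy9-1 and 2 Col-0 samples was measured on single-color Agilent arrays. The authors deposited background-subtracted spot intensities from Agilent Feature Extraction 10.7.1.1, per the submitters' processing notes. The deposited log2 table matched values rebuilt from them, scaled to the 75th percentile and centred on the Col-0 mean, to within 0.000336. The methods name MAS 5.0 for this step. The main values start from the intensities.

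Control spots and outlier spots (10 to 13 per array) were left out, spots of a probe were averaged, log2 intensities were set relative to the array's 75th percentile, and the brightest probe stood for each gene. A gene was tested if the intensity reached 100 on both arrays of a genotype. Of 35137 transcripts, 26309 matched a locus in TAIR10.1 by accession. The file's older build was not mixed with TAIR10.1, so no coordinates are given. The groups were compared unpaired in R 4.3.3 with limma 3.58.1 (lmFit and eBayes), with Benjamini-Hochberg adjustment. The code was tested on simulated data. Figures were drawn with matplotlib 3.10.9.

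All 10 members are named. Of each other list up to 3 genes with the largest change among those called are named, and the 3 genes closest in profile to P5CS1 and PDH1. Members and lists were chosen with earlier results of these data known. The alternatives cover background correction, scaling, filter, probes, outlier spots, variance model, test, fold threshold, replicate block and single arrays. The 2 arrays per genotype limit the precision. The limma P-values rest on the spread between these arrays, moderated for each gene by the spread over all genes tested.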

Additional observations from a re-analysis of the deposited data

How the results depend on the processing

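Results with other settings were as follows. Of all genes tested, 10727 passed the adjusted P and 705 also 3-fold. Normexp, run on the median spot signal because the mean is not in the files used, gave 2741 and 323 genes, with 3 and 0 members in place of 7 and 1, and moved the median of all genes to -0.10. Without a signal filter 6593 genes and 3 members passed the adjusted P. The methods' t-test gave 9542 genes and 5 members at the unadjusted threshold and, with Benjamini-Hochberg adjustment, 83 genes (12 past 3-fold) and 0 members (0 past 3-fold). At 2-fold in place of 3-fold 1820 genes and 3 members passed. Fits without 1 array, in which the lone array is assumed to vary like the other genotype's, gave 4738 to 10063 genes, 596 to 851 past 3-fold, 3 to 7 members and 0 to 1 members past 3-fold. Members called were 4 without sahy9-1 replicate 1, 3 without sahy9-1 replicate 2, 5 without Col-0 replicate 1 and 7 without Col-0 replicate 2. The members' median was 0.28 with probes averaged. Averaging reversed P5CDH to 0.60, and normexp reversed NAGS2 to -0.15 and the dim P5CDH probe to -0.20, and turned the second PROT1 probe, not called, to -0.27. The cause of these shifts was not tested.

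Over the 17 alternatives with an adjusted P, P5CS1 and PDH1 passed in 16 each, PDH2 in 15, P5CR in 13, P5CS2 and PROT3 in 12 each, P5CDH in 11, of which 1 had the sign reversed, and OAT, PROT1 and PROT2 in 0. The sign of every other member held in all 17. The shared replicate numbers are not stated to mark a common batch. Deviations of same-numbered arrays from their genotype means correlated at 0.438 over the genes tested. With 2 arrays per genotype this value is the same for both replicate numbers by construction. With the replicate number as a block 11848 genes passed the adjusted P, 726 with 3-fold, the members stayed at 7 and 1, and of the 5 factors linked to P5CS1 1 was higher and 2 were lower.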
